A study of Drosophila melanogaster and Drosophila yakuba and Drosophila virilis with 6 samples.

Results

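The gene models of D. yakuba and D. virilis leave some sequence tags without a gene of their own species, and a second mapping of the same libraries places part of these tags on a D. melanogaster gene. The positions described here are those that have no gene in the gene mapping, match a position of the genome mapping by sequence name, start and end, carry a D. melanogaster gene there, and hold at least 2 tags over both libraries of the species. Members were thus chosen by their tag total and by the missing gene, not by any disc difference, so their levels are a description. They are called placed positions below, and positions with a gene of their own species are called annotated positions. There were 452 placed positions on 259 genes in D. yakuba and 772 on 519 genes in D. virilis. They were drawn from 60464 positions in the D. yakuba and 115991 in the D. virilis gene mapping. The 1224 positions are part of 260616 in the whole series, D. melanogaster included, and they fall on 695 different genes.

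Tag profiling was done on imaginal discs of wandering larvae of the third instar, the larval epithelia that give rise to the adult head and thorax. The study holds 6 libraries, 1 of the eye-antennal disc and 1 of the wing disc from each of D. melanogaster (strain CantonS), D. yakuba and D. virilis, with no treatment named. The labels give no strain for D. yakuba and D. virilis, and neither the number of larvae nor any pooling. A species has 1 library of each disc, so a disc difference within a species has no replicate and no test, and intervals cover counting error only. In bulk tissue, fewer cells of a type and less RNA per cell cannot be told apart.

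In tag profiling, RNA with a poly(A) tail is copied into cDNA, and the cDNA is cut by the enzyme NlaIII. The tag is read beside the cut nearest the 3′ end that was captured. A tag therefore usually lies in the last part of a transcript, often in the untranslated region, and 1 transcript end gives 1 tag position. A tag can lie outside a gene model and still come from that gene, from an overlapping gene on either strand, or from an unannotated RNA. The files give no strand, so overlapping genes could not be separated. Of the genes with a placed position and a symbol in the annotation, 143 of 210 in D. yakuba and 231 of 443 in D. virilis overlap another annotated gene.

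Totals were 5673047 tags for the eye-antennal and 2200615 for the wing library of D. yakuba, and 2065918 and 3132492 for those of D. virilis. The summed level of 8 eye-antennal markers was 2567 counts per 1000000 tags (CPM) for the eye-antennal disc of D. yakuba and 212 for its wing disc, and 1898 and 56.8 in D. virilis. That of 6 wing markers was 9.87 and 261 CPM for D. yakuba, beside 13.1 and 417 for D. virilis. ato in D. virilis and ap in both species were at 0. Marker genes of other tissues also had tags. Whether these tags came from other tissue or from disc cells was not tested. Not every such marker was seen. The larval muscle genes Mhc and wupA were at 0 for either species, and the fat body genes Lsp1alpha and Lsp1beta for D. virilis. Ring gland markers of D. virilis summed to 210 eye-antennal and 94.5 wing CPM, with dib at 254 and 280 tags. Larval muscle markers of D. yakuba summed to 144 and 78.6 CPM. Fat body markers reached 2376 and 25373 CPM for D. yakuba beside 287 and 8713 for D. virilis, larval muscle markers 896 and 2165 in D. virilis, and ring gland markers 955 and 46.8 in D. yakuba, each in the order eye-antennal then wing. Midgut markers were at 2.42 and 2010 CPM in D. virilis, and at 18.2 and 9.54 in D. yakuba, with Jon66Ci at 0 in both species. Brain markers were at 276 and 89.4 CPM in D. virilis and at 114 and 30.9 in D. yakuba, with brp at 0 in the latter. Among them elav held every wing tag of D. virilis (280) and most tags of D. yakuba (532 and 56). The D. yakuba libraries had nerfin-1 at 101 and 4, Ilp2 at 10 and 0, Gad1 at 0 and 8 and Hug at 1 and 0. The D. yakuba sum thus rests mainly on elav, and whether its tags came from brain tissue was not tested. Of these tissue markers, spok was the 1 ring gland gene with placed positions in either species and elav the 1 brain gene in D. yakuba, with 5 and 4 tags in D. yakuba, and no fat body, salivary gland, larval muscle or midgut marker had any.

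Positions with no gene were a small share of each library, but not an equal one. They took 2.29% of the eye-antennal and 2.05% of the wing tags of D. yakuba, beside 3.09% and 1.24% of those of D. virilis. The D. virilis eye-antennal library listed 29479 such positions and its wing library 4920, while D. yakuba listed 3611 and 1735. Placed positions held 23012 tags in D. yakuba, 13.1% of the tags without a gene, and 17563 in D. virilis, 17.1%. D. yakuba thereby had a placed level of 3052 CPM in its eye-antennal library and 2589 CPM in the other, and D. virilis one of 3956 and 2998 CPM. The shares of 13.1% and 17.1% are not directly comparable. The genome mapping listed only 21.0% of the D. yakuba tags without a gene, but 99.8% of those from D. virilis. By library, the D. virilis share was 12.8% for the eye-antennal and 24.2% for the wing disc, while D. yakuba had 13.3% and 12.6%. Both mappings gave the same counts at 442 of 452 positions in D. yakuba and 753 of 772 in D. virilis.

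Most placed positions were thinly filled. The median was 4.5 tags in D. yakuba and 3 in D. virilis, and the highest held 3059 and 2054. At least 10 tags were found at 144 positions in D. yakuba and 163 in D. virilis. At the edge of the rule, 133 positions in D. yakuba held exactly 2 tags and 369 held 1 tag and were left out. In D. virilis 297 held 2 tags, and the 1925 that held 1 tag had 1656 of them in the eye-antennal library. The 10 genes with the most tags carried 62.2% of all placed tags in D. yakuba and 54.4% in D. virilis.

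The genes fell into 3 classes. In D. yakuba, 158 of 259 genes (61.0%) also had tags at annotated positions paired with that gene. A further 33 had other tags of the genome mapping only under an own gene not paired with them. The remaining 68 (26.3%) were seen through placed positions alone. An own gene not paired with the placed gene may be paired with another D. melanogaster gene or with none, and these cases are not separated here. In D. virilis the classes held 299 of 519 (57.6%), 82 and 138 (26.6%). Where a gene had paired annotated tags, placed tags were a minor part of it, with a median of 2.78% of the gene's tags in D. yakuba and 7.04% in D. virilis. Placed tags nevertheless outnumbered annotated ones in 11 of 158 genes and 42 of 299 genes. Genes with no paired annotated tag held 12883 of the placed tags (56.0%) in D. yakuba and 9913 (56.4%) in D. virilis, and 50 of 101 and 84 of 220 of them had at least 10 tags in D. melanogaster.

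Several abundant genes of D. yakuba were seen through placed positions alone. Spf30, a splicing factor, had 2451 eye-antennal and 703 wing tags at 2 positions and none at an annotated one. Its main position, chr3L:24020694-24020716 in the D. yakuba sequence (droYak2 names), held 2379 and 680 of these, and the matching D. melanogaster position held 137 and 111 tags. After scaling, Spf30 was 1.30-fold higher in the eye-antennal library (95% interval 1.20 to 1.42), so its discs were close to level. CG41128, a gene with no role given here, had 875 and 356 tags in D. yakuba, while D. virilis had 500 and 639. CG12547, also without a role given here, had 815 and 406 tags in D. yakuba. Alg-2, a calcium-binding protein gene, had 238 and 68 tags in D. yakuba, while D. virilis had 4 and 16.

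In D. virilis the genes with most tags and no paired annotated tag were CG4593, ND-AGGG and CG41128. CG4593 had 780 eye-antennal and 1283 wing tags, nearly all at scaffold_9558:3430-3452, where 779 and 1275 were counted. The same position had 6 and 5 tags in D. melanogaster, whose whole gene had 141 and 218. ND-AGGG, a subunit of respiratory complex I, had 645 and 833 tags at 5 positions, against 6 and 9 for the gene in D. melanogaster. Neither differed by 2-fold between the discs. c12.2 had 191 and 407 tags, 1.64-fold higher in the wing library (1.38 to 1.96). AGO3, which encodes an Argonaute protein of the piwi pathway, had 83 and 158 tags, with 1 and 1 in D. melanogaster.

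Other abundant genes were partly annotated. Pka-C1, the catalytic subunit of protein kinase A and a negative regulator of Hedgehog signalling, had 959 and 310 placed tags in D. yakuba beside 122 and 52 annotated ones. In D. virilis it had 300 and 415 beside 20 and 31. Its main placed position lay 14920 bases from the nearest annotated position of the gene in D. yakuba and 15161 in D. virilis. Ide, an insulin-degrading metalloprotease, had 698 and 189 placed tags in D. yakuba and 11 and 6 annotated ones, and its 1 placed position lay 18 bases from an annotated position of the gene. RhoGAP100F, a GTPase-activating protein, had 351 and 461 placed tags in D. virilis beside 12 and 3. Tm1, which encodes tropomyosin, had 103 and 128 placed tags in D. virilis and 1 and 1 annotated ones, whereas in D. yakuba 596 and 161 stood beside 1288 and 576.

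**Figure D1:**
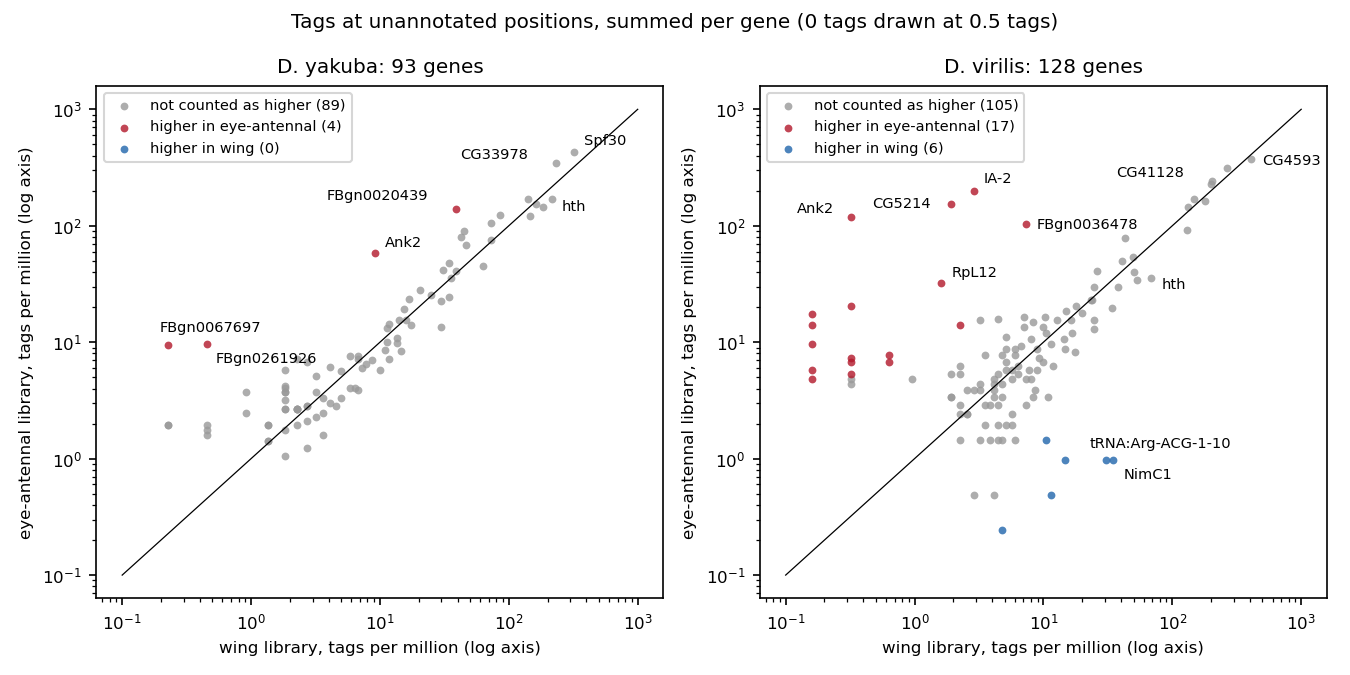
CPM (tags relative to 1000000 of the library) at placed positions, summed per gene, in the wing (horizontal, log axis) and eye-antennal (vertical, log axis) libraries, for the 93 genes of D. yakuba and 128 of D. virilis with at least 10 tags. Each point is 1 gene, the line marks equal levels, and coloured points are the 4 and 23 genes counted as higher in a disc: in D. yakuba all lie on the eye-antennal side, in D. virilis 17 on the eye-antennal and 6 on the wing side.

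Placed positions lay on gene types that were rare among genes paired through annotated positions, and on chromosomes that held few annotated positions. The pairing itself holds few noncoding genes, so the gene types give no statement on annotated positions in general. Annotated positions under an own gene not paired with it were placed on CR42549, a noncoding RNA gene, in both species. Noncoding RNA genes were 8 of 259 genes (3.09%) in D. yakuba against 7 of 9458 genes paired through annotated positions (0.0740%), and 18 of 519 (3.47%) against 2 of 10317 (0.0194%) in D. virilis. The leading one was Hsromega, a long noncoding RNA known for its heat induction. It had 424 and 159 tags in D. yakuba, 339 and 563 in D. virilis and 340 and 147 in D. melanogaster, and no paired annotated tag in either species. CR32111 followed with 203 and 79 tags in D. yakuba, while D. virilis had 6 and 12.

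Transfer RNA genes were 9 genes in D. yakuba and 16 in D. virilis, with none among genes paired through annotated positions. tRNA:Gln-CTG-2-1 had 691 and 322 tags at 1 position in D. yakuba, and it lies within the gene ec in the annotation. tRNA:iMet-CAT-2-1, which lies within Mmp2, had 36 and 0 tags in D. virilis and 11 and 0 in D. yakuba. Mmp2, a matrix metalloprotease gene, itself had 4713 and 293 tags in D. melanogaster. Whether these tags come from the transfer RNA or from the gene around it cannot be told apart without strand.

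Chromosome 4 and the heterochromatin were prominent. In D. yakuba 35 of 452 placed positions (7.74%) lay on chromosome 4 of D. melanogaster, against 1.35% of annotated positions, and they held 15.6% of placed tags. CG33978 on that chromosome had 1946 and 508 placed tags beside 441 and 164 annotated ones, and anne had 453 and 94 beside 412 and 128. In D. virilis 18 of 772 (2.33%) lay there, against 0.961%. Heterochromatic or unplaced D. melanogaster sequence held 20 placed positions (4.42%) in D. yakuba against 0.110% of annotated ones, and 36 (4.66%) in D. virilis against 0.465%. CG41128 gave 1231 of the 1768 heterochromatic placed tags of D. yakuba, and ND-AGGG and CG41128 gave 1478 and 1139 of the 2841 in D. virilis. These shares are descriptions of the positions, which are not independent of each other where a gene has several. Annotated positions were taken here with any number of tags, and placed ones with at least 2.

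**Figure D2:**
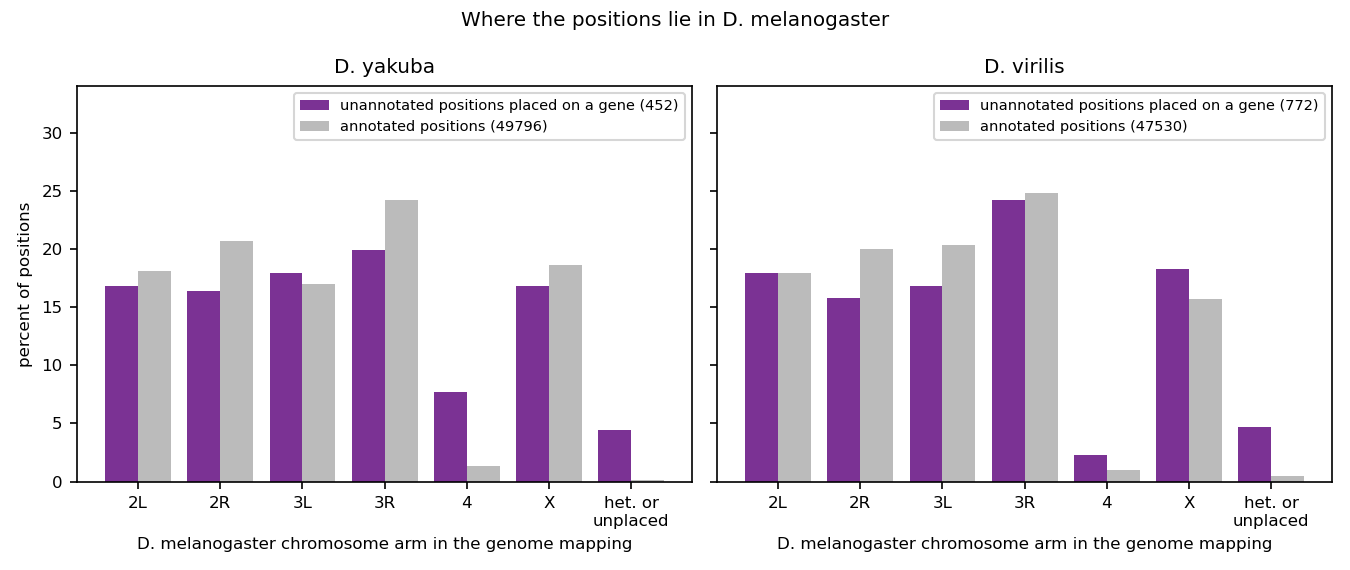
Percent of positions (vertical) by D. melanogaster chromosome arm (horizontal) for placed positions (purple) and annotated positions that the genome mapping places (grey), 1 panel per species. Placed positions hold at least 2 tags, and annotated ones any number. Chromosome 4 takes 7.74% of placed and 1.35% of annotated positions in D. yakuba, and heterochromatic or unplaced sequence takes 4.42% and 4.66% of placed positions in D. yakuba and D. virilis.

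Where a gene had annotated positions on the same sequence, the placed positions lay mostly beyond them. This could be measured for 252 positions in D. yakuba and 353 in D. virilis. They lay outside the span of the annotated positions in 203 and 281 cases and between them in 49 and 72. The median distance to the nearest annotated position of the gene was 4992 bases in D. yakuba and 4079 in D. virilis. The lower quartile was 1294 and 1463 bases, and the upper quartile 15337 and 14342. The highest distance was 9314821 bases in D. yakuba and 10883281 in D. virilis. The nearest annotated position of any gene belonged to the same gene for 162 of 452 and 224 of 772 placed positions. Some positions are not separate: 191 in D. yakuba (42.3%) and 238 in D. virilis (30.8%) had any other position 18 bases away, and 142 and 122 another placed one, the spacing of tags read in both directions from 1 cut site.

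Placed positions were less often at a D. melanogaster tag position than annotated ones in these counts. A D. melanogaster tag started at the matching base for 185 of 452 placed positions (40.9%) in D. yakuba, against 51.5% of annotated positions with at least 2 tags. In D. virilis it was 59 of 772 (7.64%) against 18.8%. With at least 10 tags the counts were 84 of 144 in D. yakuba, against 65.0% of annotated positions, and 26 of 163 in D. virilis, against 24.0%. No test of these shares was made. At 15 positions on 14 genes both species had a placed position at the same D. melanogaster base, and every one of these 15 also had a D. melanogaster tag. Hsromega led them with 387 and 147 tags in D. yakuba, 335 and 558 in D. virilis and 312 and 117 in D. melanogaster. The next were Ank2 and Tm1.

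A disc difference was counted where the 95% interval of the scaled ratio stayed at least 2-fold from equality, among positions with at least 10 tags. Of the 144 such placed positions of D. yakuba, 6 (4.17%) were eye-antennal-high and 0 wing-high. Annotated positions met the same rule in 2.29% and 2.52% of cases, so at this minimum, with so few positions, the counts lay near this background. Of the 163 in D. virilis, 24 (14.7%) were eye-antennal-high and 9 (5.52%) wing-high, against 4.33% and 5.13% of annotated positions. The wing share was close to the background and the eye-antennal share was above it. With at least 50 tags, 6 (10.5%) and 0 of 57 placed positions were counted in D. yakuba, against 3.67% and 2.40% of annotated ones. In D. virilis it was 8 (18.6%) and 3 (6.98%) of 43, against 3% and 7.17%. At this minimum the D. yakuba eye-antennal share was also above that of annotated positions, though it rests on 6 positions. Unannotated positions placed on no gene, again at 10 tags, were eye-antennal-high in 31.5% of cases and wing-high in 7.75% in D. virilis, compared with 4.12% and 3.78% in D. yakuba. This class includes positions that the genome mapping does not list. The D. virilis eye-antennal library is also the one with 29479 positions without a gene, and the part of this in the eye-antennal share was not tested. The median log2 ratio of eye-antennal over wing, with 0.5 tags added, was −0.05 for placed positions of either species, and 0.00 and −0.16 for annotated ones.

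**Figure D3:**
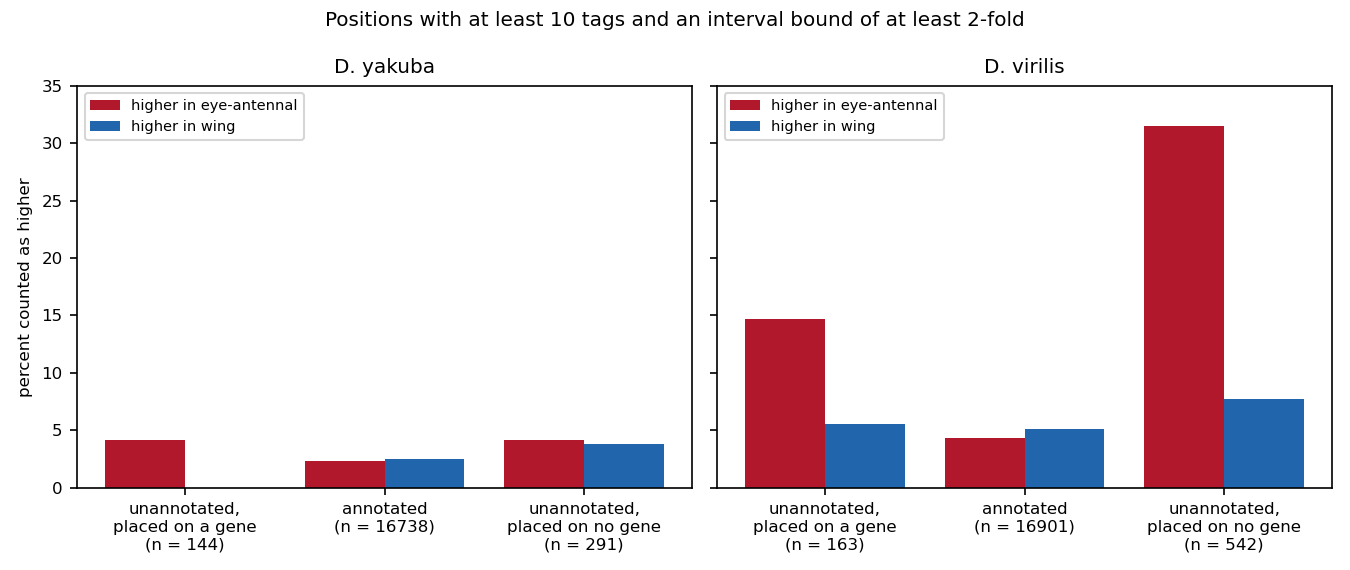
Percent of positions counted as higher in a disc (vertical, red for eye-antennal and blue for wing) among placed, annotated and unplaced positions with at least 10 tags, 1 panel per species. In D. virilis 14.7% of placed and 31.5% of unplaced positions are higher in the eye-antennal library, against 4.33% of annotated ones, while in D. yakuba no class exceeds 4.17%.

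By gene, 93 in D. yakuba had at least 10 placed tags, and 4 of them were eye-antennal-high and 0 wing-high, against 3.60% and 3.30% of genes summed over annotated positions. Of 128 in D. virilis, 17 were eye-antennal-high and 6 wing-high, against 6.15% and 4.38%. All 4 genes in D. yakuba had no paired annotated tag, and 0 of the 49 with such tags was counted. In D. virilis 11 of 51 genes without and 6 of 77 genes with paired annotated tags were eye-antennal-high. The 24 eye-antennal positions of D. virilis lay on 19 genes. The wing library held 0 tags at 6 of them and 1 tag at 8.

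Ank2, an ankyrin that anchors membrane proteins to the cytoskeleton and is best known in neurons, was the 1 gene counted in both species. It had 331 eye-antennal and 20 wing placed tags in D. yakuba, 244 and 1 in D. virilis, and 112 and 4 gene tags in D. melanogaster. The eye-antennal library was the higher one in each species. The ratio was 6.18-fold in D. yakuba (95% interval 3.93 to 10.2), 317-fold in D. virilis (56.4 to 12590) and 21.5-fold in D. melanogaster (8.16 to 80.2). Nearly all placed tags came from 1 position per species, chr3L:8295088-8295110 with 323 and 19 in D. yakuba and scaffold_13049:19393258-19393280 with 242 and 1 in D. virilis (droVir3 names). Both lie at 1 D. melanogaster position, which had 64 and 0 tags. Some positions are given to Ank2 by the genome mapping, but by the gene mapping to an own gene not paired with it. They had 164 and 6 tags in D. yakuba, while D. virilis had 31 and 7. In the annotation Ank2 overlaps CG32373, and the files do not separate them.

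IA-2 and CG5214 were among the largest differences in D. virilis. IA-2, a protein of dense-core secretory vesicles related to tyrosine phosphatases, had 408 eye-antennal and 9 wing tags at 6 positions. It was 59.0-fold higher in the eye-antennal library (30.8 to 130), and its 2 strongest positions had 242 and 2 and 126 and 4 tags. The D. melanogaster gene had 197 and 1 tags, also higher in the eye-antennal library. D. yakuba differed, with 41 and 38 annotated tags, 2.48-fold higher in the wing library (1.55 to 3.96), and 2 and 2 placed ones. Brain markers moved with the eye-antennal disc in D. virilis: all 6 had tags, with elav at 403 and 280, Gad1 at 44 and 0, Hug at 40 and 0, Ilp2 at 34 and 0, nerfin-1 at 32 and 0 and brp at 17 and 0. Their part in the values of Ank2, IA-2 and cpx was not tested.

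CG5214, which encodes a succinyltransferase of the mitochondrial oxoglutarate dehydrogenase complex, had 320 and 6 placed tags at 4 positions in D. virilis. It was 69.4-fold higher in the eye-antennal library (31.5 to 191). The D. melanogaster gene was nearly level, with 698 and 408 tags and a ratio of 1.31 (1.16 to 1.49). Tags assigned to a D. virilis gene not paired with CG5214 but placed on CG5214 were 72 and 69, and D. yakuba had 815 and 371 annotated tags. Only the unannotated positions of D. virilis, among these tag groups, met the 2-fold rule.

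The remaining eye-antennal genes of D. yakuba carry no symbol in the annotation used here. FBgn0020439 had 796 and 86 placed tags, 3.45-fold higher in the eye-antennal library (2.76 to 4.37), and 1373 and 211 tags in D. melanogaster, where it was 4.99-fold higher (4.32 to 5.80). Its main position, chr3R:10640292-10640314, held 753 and 81 tags, and the matching D. melanogaster position held 1254 and 171. In D. virilis its placed tags were 3 and 6. FBgn0261926 had 55 and 1 tags. FBgn0067697 had 54 and 0, at least 6.72-fold higher against a floor of 3 tags. FBgn0261642 was not counted over its 12 positions, with 516 and 98 tags and a ratio of 1.96 (1.58 to 2.46), but 2 of its positions were, with 186 and 21 and 129 and 11 tags.

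All 6 wing-high genes with at least 10 tags were in D. virilis, and the contrast with D. yakuba was not tested. NimC1, a phagocytosis receptor of blood cells, had 2 and 108 placed tags at 1 position and was 41.5-fold higher in the wing library (11.2 to 347). Its annotated tags were 4 and 15. That position lay 76571 bases from the nearest annotated position of NimC1. tRNA:Arg-ACG-1-10 had 2 and 96 tags, and CG13482, which lies within fz, had 2 and 46. Shrm, an actin-binding regulator of apical cell shape, had 1 and 36 placed tags but 230 and 195 annotated ones. CG16743 and CG34043 had 3 and 33 and 0 and 15 tags. The same wing library had 4 of 5 midgut markers at 1081 to 2070 tags, against 0 to 4 in the eye-antennal library, and fat body markers summed to 8713 CPM against 287. The part of either in these wing-high values was not tested.

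Placed and annotated positions of the same gene did not always share a disc difference. Of the genes with at least 10 tags of each kind, the 2 intervals did not overlap in 5 of 48 in D. yakuba and 16 of 69 in D. virilis. Across these genes Pearson's r between the log2 ratios was 0.21 and Spearman's rho 0.16 for D. yakuba, beside 0.30 and 0.17 for D. virilis. These describe points that share both libraries of a species. The intervals cover counting error only, and no such comparison was made between annotated positions of the same gene. The counts of intervals apart therefore have no background, and whether they are particular to placed positions was not tested. No gene was counted in opposite discs by its placed and annotated tags.

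hth, a homeodomain factor that specifies antenna and wing hinge, showed this in both species. Its placed tags were 967 and 472 in D. yakuba, 1.31-fold higher in the wing library (1.17 to 1.46), while its annotated tags were 1562 and 437, 1.33-fold higher in the eye-antennal library (1.20 to 1.49). In D. virilis placed tags were 73 and 215, 2.26-fold higher in the wing library (1.73 to 2.99), and annotated tags were 482 and 588, with a ratio of 1.07 (0.944 to 1.21). The D. virilis wing excess was strongest at scaffold_13047:1388481-1388503, with 27 and 146 tags. Most placed positions of hth lay between its annotated positions.

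Patterning genes were among the cases with intervals apart. Antp, the Hox gene of the second thoracic segment, had 13 and 125 annotated tags in D. yakuba, 25.8-fold higher in the wing library (14.5 to 49.7), but 15 and 5 placed ones. so, a retinal determination factor, had 188 and 32 annotated tags in D. virilis, 7.64-fold higher in the eye-antennal library (5.23 to 11.5), but 28 and 22 placed ones. RpL12, a ribosomal protein gene, had 3814 and 5035 annotated tags in D. virilis, near level, and 66 and 5 placed tags at 1 position. FBgn0036478 had 374 and 434 annotated and 212 and 23 placed tags there. The placed positions of RpL12 and FBgn0036478 lay on a sequence with no annotated position paired with the gene. Their annotated tags thus all came from other sequences. In cpx, a regulator of synaptic vesicle fusion, both kinds pointed to the eye-antennal library, with 27 and 3 annotated and 16 and 2 placed tags in D. virilis.

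**Figure D4:**
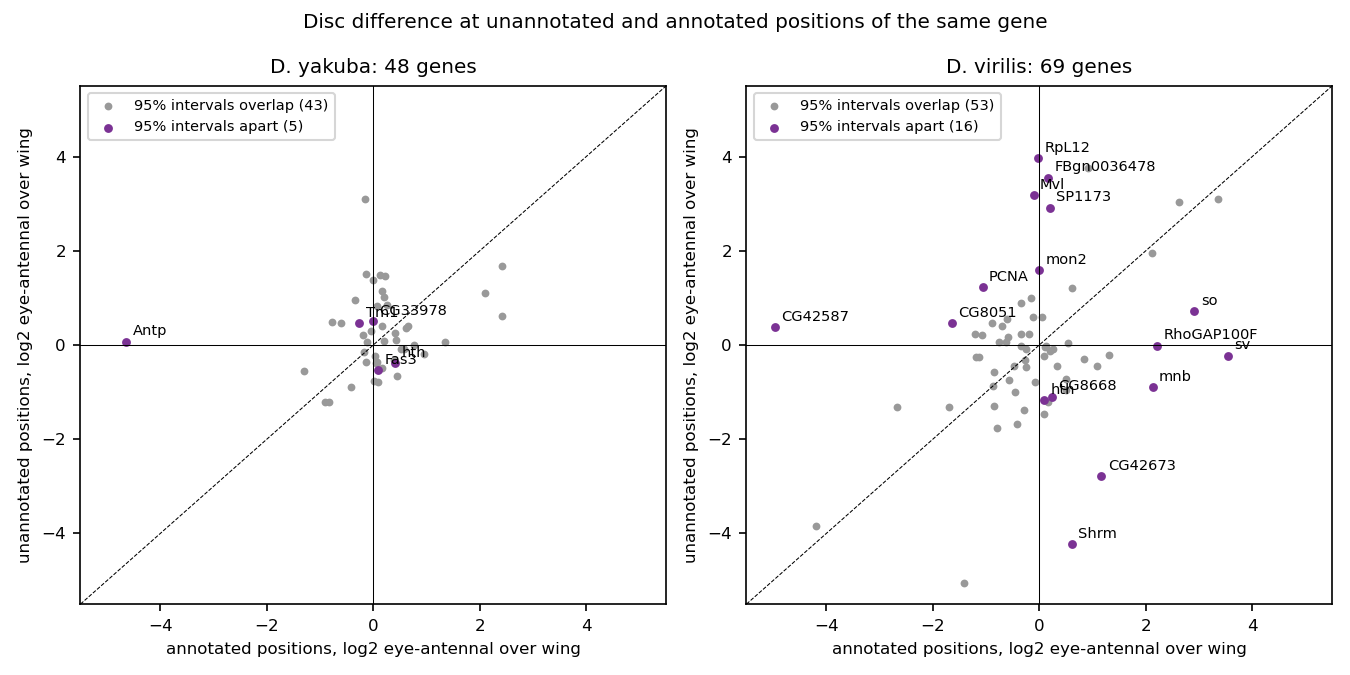
Log2 ratio of eye-antennal over wing tags at annotated (horizontal) and placed (vertical) positions of the same gene, with 0.5 tags added, for 48 genes of D. yakuba and 69 of D. virilis with at least 10 tags of each kind. The dashed line marks equal ratios, and named purple points are the 5 and 16 genes whose 95% intervals do not overlap, among them hth in both species, Antp in D. yakuba and RpL12, so and Shrm in D. virilis.

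Both species shared 83 genes with placed positions, 32.0% of the 259 of D. yakuba and a smaller share of the 519 of D. virilis. At least 10 tags in both were found for 23 genes, and the sign of the log2 ratio was the same for 15 of them, with none counted in opposite discs. CG41128, Pka-C1, Hsromega, hth and Ank2 had the most tags in the species with fewer. dom, a chromatin remodeller, was among the genes whose signs differed, with 159 and 45 tags in D. yakuba against 27 and 77 for D. virilis. Syx1A, a membrane protein of synaptic vesicle fusion, had 43 and 13 and 37 and 62. It lies within eIF4EHP in the annotation.

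Genes of 26 lists of developmental pathways and tissues were also seen at placed positions. Of these lists, 15 had any gene in D. yakuba and 18 in D. virilis. The list genes with placed positions were 37 of 558 with annotated or placed tags in D. yakuba (6.63%), beside 259 of 9559 among all genes (2.71%), and 43 of 556 (7.73%) beside 519 of 10537 (4.93%) in D. virilis, with no test. The retina list had 5 of 33 genes in D. yakuba (hth, eya, so, dac and Optix) and 6 in D. virilis, of which 1 and 3 reached 10 tags and 0 were counted as higher in a disc. The wing and notum list had 4 and 5 of 37 genes, with 2 at 10 tags in each and 0 counted. eya, a retinal phosphatase and transcription cofactor, had 8 and 0 placed tags beside 9787 and 295 annotated ones in D. yakuba. The Hedgehog, Dpp and Wg list had 4 and 5 of 35 genes, led by sgg with 11 and 1 tags in D. yakuba and fz2 with 5 and 8 in D. virilis. The 82 ribosomal protein genes gave 1 and 4, and RpL12 was the 1 counted. The neuronal list gave 3 and 4 of 32, with cpx counted in D. virilis. Fat body, salivary gland, cuticle, mitochondrial energy, proteasome, cell death and receptor lists had no gene in either species. The mitochondrial energy list of 41 genes does not include ND-AGGG or CG5214, which had placed tags in D. virilis. Eip75B, an ecdysone-induced nuclear receptor, had 0 and 5 placed tags in D. yakuba, too few for a statement.

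Across the species, tags were summed per D. melanogaster gene over all 6 libraries with placed tags added, and the disc difference was tested with edgeR's quasi-likelihood test with the species as a block and Benjamini-Hochberg adjustment. Adding placed tags brought 56 genes into the test, which then covered 6009 genes and 349 with placed tags. Of these 349 genes, 3 were called for the eye-antennal disc and 0 for the wing disc, against 0.266% and 0.116% of all genes. An unadjusted edgeR p under 0.05 was found for 60, and no such count was made over all genes. DESeq2 called 23 and 3 of the 349, beside 138 and 69 of all 6009. Without D. virilis the edgeR counts were 16 and 2 of 361, beside 109 and 34 of all 6148. Without D. melanogaster they were 5 and 1 of 359, beside 27 and 26 of 6362. Without D. yakuba they were 3 and 0 of 376, beside 19 and 6 of 6336. The 3 genes of the fit on all libraries were eya, Nrt (a neural adhesion protein) and Mmp2. They drew 0.061%, 0.207% and 0.0672% of their tags from placed positions. None of the 56 genes passed.

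Ank2 could be tested only with placed tags, since all tags paired with it outside D. melanogaster came from them. The log2 ratios were 4.39 in D. melanogaster, 2.60 in D. yakuba and 7.82 in D. virilis, with a mean of 4.94 ± 2.65 (SD, n = 3 species), and the direction was the same in every species. The edgeR quasi-likelihood test gave an adjusted p of 0.0984, with 1.69e-06 to 0.147 over the alternatives. IA-2 had log2 ratios of 6.79, −1.31 and 5.90 and an adjusted p of 0.552. CG5214 had 0.52, −0.28 and 6.10 and an adjusted p of 0.724. For so, Optix and SP2353, which passed without placed tags, the adjusted p with them was 0.0526, 0.0539 and 0.0526. The fitted log2 ratio was 2.88 without and 2.70 with placed tags for so, 5.01 and 5.03 for SP2353, and 2.11 either way for Optix. Placed tags made up 6.80% of the tags of so, 0.270% of those of Optix and 0.893% of those of SP2353, and the fit as a whole had 16 eye-antennal calls with them and 29 without.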

How the data were processed

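Tags were mapped by the submitters with Bowtie 0.12.1, per the submitters' processing notes, and the authors deposited counts of tags per position, not normalized, in a gene mapping per library and, for D. yakuba and D. virilis, a genome mapping. The sources used here state no mapping parameters, strand or coordinate base; the end is 22 above the start. Placed positions were joined by sequence name, start and end. Libraries were scaled by TMM factors within a species (1.02 and 0.980 in D. yakuba, 1.09 and 0.918 in D. virilis) from annotated tags. Ratios have exact conditional binomial (Clopper-Pearson) 95% intervals, counting error only, since tags carry no molecular identifiers. Higher in a disc means an interval bound of at least 2-fold and at least 10 tags, and a ratio against 0 tags uses a floor of 3 tags. Across species, edgeR 4.0.16 (R 4.3.3) fitted disc with species as a block on genes with a minimum count of 10, at an adjusted p of 0.05, with 2 residual degrees of freedom. DESeq2 1.42.0 was an alternative. The scripts were tested on simulated data. Gene types, overlaps and symbols came from the BDGP6 annotation by gene identifier, and 210 of 259 and 443 of 519 genes matched. The members and gene lists were chosen with earlier results of these data known. Genes are named by rank of tags or interval bound, by list and by the fit, plus those whose placed and annotated intervals did not overlap, chosen after their values were seen. No genome sequence of either species was used, so no tag sequence is shown.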

Additional observations from a re-analysis of the deposited data

Results flagged for a closer look

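Positions without a gene that the genome mapping either does not list or places on no gene carried large signals in some cases. None of them was a placed position. In D. yakuba the position with the most tags, v2_chrUn_1390:87-109, held 84389 tags, 64197 of them eye-antennal and 20192 wing. It is not listed in the genome mapping, where D. yakuba positions without a gene held at most 3059 tags. The largest interval bound towards the eye-antennal library was at chr4:1237630-1237652, with 100 tags split 99 and 1 and a 36.9-fold ratio (6.48 to 1474). Towards the wing library it was at chr3R:23186644-23186666, with 521 tags split 24 and 497 and a 55.5-fold ratio (36.9 to 87.4).

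In D. virilis the position with the most tags, scaffold_12726:1184021-1184043, held 8661 tags, 4150 and 4511. At scaffold_13324:814863-814885 there were 1193 tags, 1184 and 9, a ratio of 171-fold towards the eye-antennal library (89.9 to 375). At scaffold_12963:3605036-3605058 there were 651 tags, 2 and 649, a ratio of 249-fold towards the wing library (68.8 to 2064). No gene is given for these positions here, and none was tested.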

How the results depend on the processing

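Of 50 recomputed values, 26 stayed close to the reported one and 24 did not, where close means within 1.5 times for a count and within the 95% binomial interval for a share. A minimum of 10 tags left 144 and 163 placed positions in D. yakuba and D. virilis, and no minimum gave 821 and 2697. The placed share of tags without a gene was 13.4% and 19.0% with no minimum, and 11.6% and 15.4% without the position with the most tags. Genes seen through placed positions alone numbered 28 and 26 at a minimum of 10 tags. An interval bound above 1-fold gave 21 eye-antennal and 12 wing positions in D. yakuba and 32 wing positions in D. virilis. At least 50 tags left 8 eye-antennal and 3 wing positions in D. virilis, where 3% and 7.17% of annotated positions were counted. Across species, eye-antennal calls among genes with placed tags were 6 from annotated tags alone, 23 by DESeq2 and 10 with no filter beyond 1 tag. Over all genes tested these settings gave 29, 138 and 73. Leaving out each species in turn gave 3 to 16, beside 19 to 109 over all genes. The highest came without D. virilis, whose cause was not tested. Wing calls were 3 by DESeq2, 1 with no filter and 0 to 2 with a species left out. Over all genes they were 69, 19 and 6 to 34. Other scaling and the counts of the genome mapping moved no count of positions by over 1.5 times. The fit across species already pairs both discs of a species through the species block, and the labels carry no replicate numbers for any other pairing. Depth limits positions with 2 to 9 tags, which support no disc statement.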
